A study of Mus musculus with 11 samples.

Results

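The immunoproteasome and class I peptide-loading genes were followed across mouse kidneys in a lupus nephritis model and its treatment with DNase I. They comprise 10 genes, taken by symbol out of the 25677 genes in the count table. Psmb8, Psmb9 and Psmb10 encode the inducible catalytic subunits of the proteasome, and Psme1 and Psme2 encode the PA28 activator. Tap1 and Tap2 encode the peptide transporter, Tapbp encodes tapasin, Erap1 encodes a trimming aminopeptidase and Nlrc5 encodes the class I transactivator. All 10 were found, and all 10 passed the low-count filter in each comparison.

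RNA was sequenced from 1 kidney sample of each of 11 female mice aged 21 weeks. The Ctr group held 3 healthy C57BL/6J mice (C57B6 in the labels) and the Lpr group held 4 untreated MRL/lpr mice, a strain that carries the lpr mutation of the death receptor gene Fas and develops lupus-like nephritis. The DNase group held 4 MRL/lpr mice given DNase I by intraperitoneal injection each day from week 17, an enzyme that cuts extracellular DNA such as that of neutrophil extracellular traps. Strain, Fas genotype and disease changed together between Ctr and both MRL/lpr groups, so they cannot be told apart in those comparisons. The sources used here describe no vehicle injection for Lpr. For the handling of Lpr and Ctr mice the study refers to an earlier protocol, so whether they were injected is not known here.

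Class I molecules display short peptides of cell proteins to CD8 T cells. The proteasome cuts these peptides, interferon gamma replaces its constitutive catalytic subunits (Psmb5, Psmb6 and Psmb7) with the inducible ones (Psmb8, Psmb9 and Psmb10, in that order), TAP moves the peptides into the endoplasmic reticulum, tapasin helps to load them and Erap1 trims them. In kidney the pathway is low at rest in tubular cells, is higher in leukocytes, and is induced in both by interferons.

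Psmb9, Tap1, Psmb8, Tap2 and Tapbp lie in the major histocompatibility complex on chromosome 17 of GRCm38, the mouse assembly also known as mm10. Psmb9 (chr17:34182030-34187330, minus strand), Tap1 (chr17:34187556-34197225, plus strand), Psmb8 (chr17:34198195-34201454, plus strand) and Tap2 (chr17:34204479-34216321, plus strand) are neighbours within 34292 bases. Tapbp (chr17:33919478-33929290, plus strand) lies apart from these 4. Psme1 (chr14:55578494-55581527, plus strand) and Psme2 (chr14:55587440-55591101, minus strand) face each other with 5912 bases between their ends. Erap1 is at chr13:74639573-74693205, plus strand. Psmb10 (chr8:105935728-105938392, minus strand) and Nlrc5 (chr8:94434335-94527272, plus strand) share chromosome 8. The MRL strain carries another histocompatibility haplotype than C57BL/6J, the strain of the reference, and its effect on read assignment was not tested.

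Promoter sequence was read from RefSeq on GRCm38, from 250 bases before to 50 bases after each annotated start, for the 8 genes with an entry (Tap2 and Nlrc5 had none). Psmb9 and Tap1 start 225 bases apart on opposite strands, so they share 1 promoter, shown here with the bases between both starts in capitals (plus strand, chr17:34187306-34187605).
Psmb9 and Tap1: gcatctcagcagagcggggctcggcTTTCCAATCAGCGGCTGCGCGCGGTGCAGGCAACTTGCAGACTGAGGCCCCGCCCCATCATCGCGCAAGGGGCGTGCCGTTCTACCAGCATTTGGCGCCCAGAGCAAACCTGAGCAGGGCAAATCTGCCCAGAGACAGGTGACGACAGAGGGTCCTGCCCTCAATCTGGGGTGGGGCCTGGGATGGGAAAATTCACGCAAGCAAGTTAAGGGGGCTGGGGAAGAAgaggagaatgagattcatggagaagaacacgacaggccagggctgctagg

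Both strands were searched for the core of the interferon-stimulated response element (GAAA, any 2 bases, GAAA), the gamma-activated site TTCNNNGAA and the kappaB motif. The gamma-activated site was found in the Psmb8 window alone, from -97 to -89 relative to the start of the window's transcript, and in 8.30% of all 32851 promoter windows. The response element core was found in the windows of Psme1 (9 to 18) and Erap1 (-4 to 5), and in 3.44% of all windows. The Erap1 window belongs to a RefSeq start at base 74639853 of chromosome 13, 280 bases inside the gene as given above, so the match lies downstream of the gene's first base. The kappaB motif was found in 0 of the 8 genes and in 4.51% of all windows. The 3 windows with a match are shown with the match in capitals, which in Psme1 and Erap1 reads as the opposite strand of the motif: Psmb8 (plus strand, chr17:34197945-34198244), Psme1 (plus strand, chr14:55578244-55578543) and Erap1 (plus strand, chr13:74639603-74639902).
Psmb8: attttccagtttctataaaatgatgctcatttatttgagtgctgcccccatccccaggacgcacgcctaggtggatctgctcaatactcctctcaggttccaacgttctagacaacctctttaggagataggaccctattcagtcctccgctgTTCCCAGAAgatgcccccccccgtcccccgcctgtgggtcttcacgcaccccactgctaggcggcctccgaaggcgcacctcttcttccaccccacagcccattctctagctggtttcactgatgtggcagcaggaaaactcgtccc
Psme1: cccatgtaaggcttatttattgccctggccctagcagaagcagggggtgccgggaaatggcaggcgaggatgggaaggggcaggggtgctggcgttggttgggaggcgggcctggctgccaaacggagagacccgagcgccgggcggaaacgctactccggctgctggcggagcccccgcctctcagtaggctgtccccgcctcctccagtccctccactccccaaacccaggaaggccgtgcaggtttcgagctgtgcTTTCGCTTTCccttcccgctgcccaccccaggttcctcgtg
Erap1: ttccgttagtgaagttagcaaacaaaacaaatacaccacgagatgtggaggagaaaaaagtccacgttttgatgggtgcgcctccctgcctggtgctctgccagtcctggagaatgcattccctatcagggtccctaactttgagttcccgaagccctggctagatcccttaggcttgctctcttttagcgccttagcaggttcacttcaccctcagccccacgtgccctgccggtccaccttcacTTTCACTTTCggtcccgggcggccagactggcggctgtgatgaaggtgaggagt

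Each kidney gave 33469858 to 38460873 gene counts. Levels within a gene are given as CPM, its counts scaled to a common library size by the TMM method, and levels between genes as FPKM, which divides by gene length. The kidney markers Slc34a1 of the proximal tubule, Umod of the thick ascending limb and Nphs1 of podocytes were present in every kidney, with at least 613, 1152 and 3.13 FPKM. Lpr replicate 3 stood apart from the other 10 kidneys. Relative to the mean of all kidneys, its log2 level changed by -0.39 with each doubling of gene length, beside -0.04 to 0.08 in the others. Its values are therefore named throughout, and results are given with and without it. Sequence shared with other genes makes some counts uncertain. Psme2b is 99.4% identical to Psme2 over 794 bases, Gm7776 is 90.3% identical to Psme1 over 750 bases, and Cast overlaps Erap1 by 840 bases. Further matches were Gm7928 to Psme2 (90.4% over 721 bases) and Gm46496 to Psme1 (92.7% over 422 bases). Gm15821 matched Tap2 (93.3% over 298 bases) and Gm19412 matched Tapbp (100% over 297 bases). Some GENCODE transcripts of Psmb9 and Tap1, genes on opposite strands, share 212 bases, although the starts given above lie 225 bases apart. The strand setting of the counting is not given in the sources used here. Summing the counts of Psme2 and Psme2b gave 1.79 on the log2 scale for Lpr against Ctr, where Psme2 alone gave 1.80.

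In healthy kidney the PA28 activator stood above the inducible catalytic subunits. It stood below the constitutive Psmb5, Psmb6 and Psmb7, with means of 129, 106 and 102 FPKM in Ctr. Among the 10 genes Psme1 was highest in Ctr on the FPKM scale, at 60.9 ± 8.54 (SD, n = 3). Tapbp at 36.9 ± 1.66 and Psme2 at 35.4 ± 2.46 followed, with overlapping ranges. Psmb8 at 14.6 ± 2.24, Psmb10 at 13.7 ± 1.77 and Tap2 at 11.4 ± 1.48 overlapped their neighbours in turn. Erap1 was at 8.68 ± 0.352, and below it Psmb9 at 7.44 ± 0.947 overlapped Tap1 at 5.86 ± 0.803. Nlrc5 was lowest, at 0.486 ± 0.167.

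In the diseased kidney the order changed. Psmb8, at rank 4 in Ctr, held rank 1 with 248 ± 51.7 FPKM in Lpr and 159 ± 22.3 in DNase (SD, n = 4 each). Its range overlapped that of Psme1, at 184 ± 44.6 in Lpr and 137 ± 15.4 in DNase. Psmb9 passed Erap1 and Tap2, with 103.5 ± 21.6 in Lpr, where it overlapped Tapbp (119 ± 29.6) above it and Psmb10 (93.6 ± 24.9) below it. Tap1, Erap1 and Nlrc5 held the last 3 places in both groups, with Nlrc5 at 5.37 ± 2.94 in Lpr and 4.44 ± 0.537 in DNase.

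**Figure D1:**
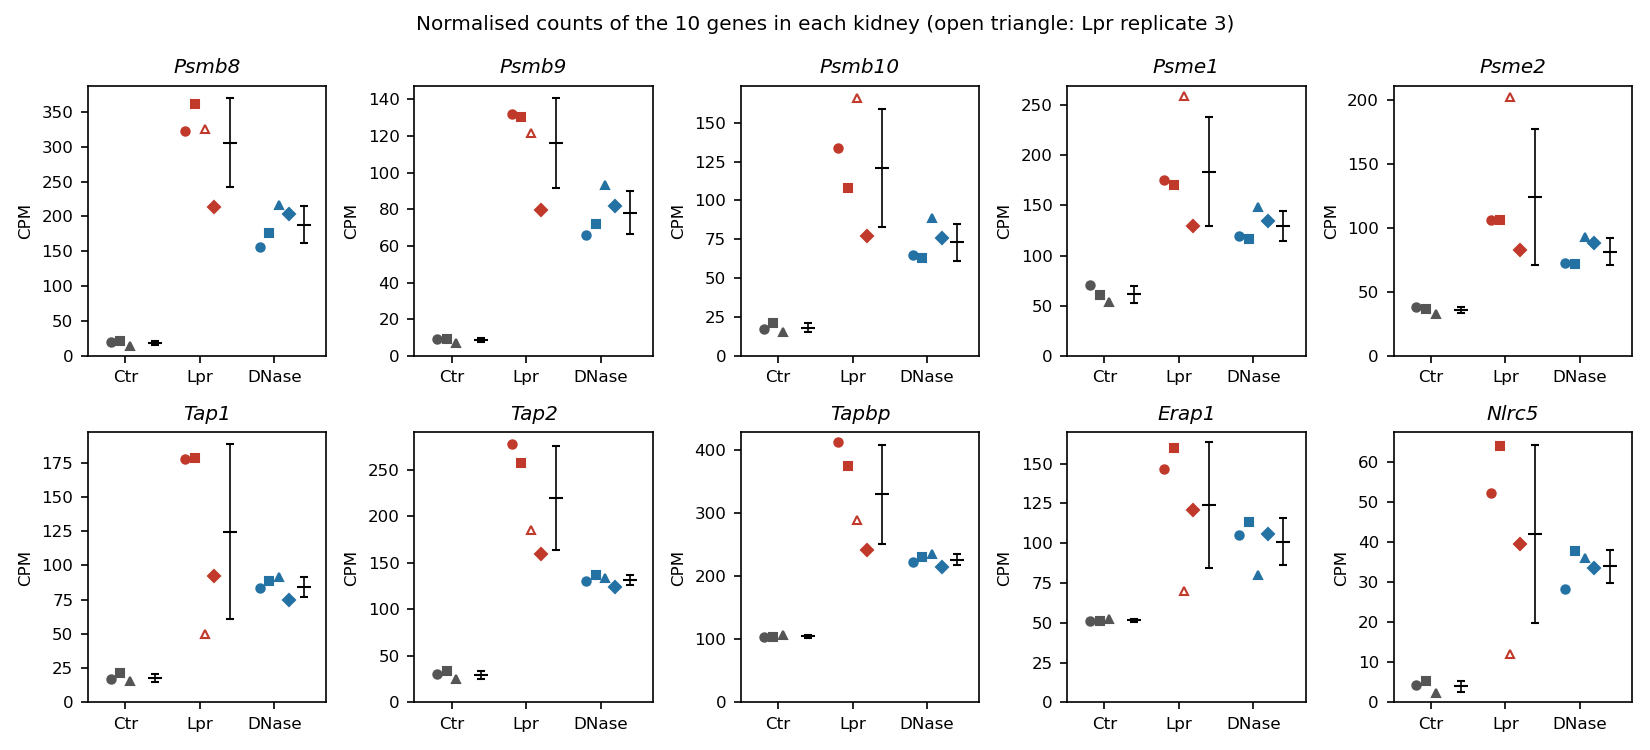
CPM of the 10 genes (vertical axes, linear from 0) in each kidney of the Ctr, Lpr and DNase groups. Circles, squares, triangles and diamonds are replicates 1 to 4, the open triangle is Lpr replicate 3, and black bars are the mean ± SD (n = 3, 4 and 4). All Lpr and DNase points lie above all Ctr points in every panel, and the DNase points lie below all Lpr points for Tap2 and Tapbp.

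The comparison of Lpr with Ctr asked what the lupus kidney expresses beyond healthy kidney. All 10 genes rose in Lpr by edgeR's quasi-likelihood test with Benjamini-Hochberg adjustment over 16074 genes, where 7.27% of all genes tested rose at an adjusted p under 0.05. In all 10 the lowest Lpr kidney was above the highest Ctr kidney, a pattern seen in 14.4% of all genes. A further limit of the study, a log2 fold change above 2, was passed by 6 genes (Psmb8, Psmb9, Psmb10, Tap1, Tap2 and Nlrc5), and by 4.65% of all genes in that direction. By limma on log2(FPKM + 1), Nlrc5 was at 1.94 and 5 genes passed. The median log2 fold change of the 10 was 2.77, beside 0.03 over all genes tested. Without Lpr replicate 3 all 10 were again called, against 11.0% of all genes.

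Psmb8 and Psmb9 had the highest log2 fold changes of the 10. Psmb8, which carries the chymotrypsin-like activity of the immunoproteasome, counted 19.3, 21.2 and 14.9 CPM in Ctr and 323, 361, 325 and 213 CPM in Lpr, replicates in order. Its log2 fold change, given here and for the other genes ± SE, was 4.05 ± 0.26, or 16.6-fold, with an adjusted p of 0.000201 (edgeR). Replicate 4 was the lowest Lpr kidney and lay far above the highest Ctr kidney.

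Psmb9, its partner next to Tap1, counted 9.10, 9.45 and 7.16 CPM in Ctr and 132, 131, 122 and 79.7 CPM in Lpr. The log2 fold change of Psmb9 was 3.76 ± 0.25, with an adjusted p of 0.000201 (edgeR). Psmb10, the third inducible subunit, counted 17.5, 21.2 and 15.7 CPM in Ctr and 133, 108, 166 and 76.8 CPM in Lpr. It rose by 2.74 ± 0.29 on the log2 scale (adjusted p 0.000773, edgeR), and Lpr replicate 3 was its highest kidney. Without that kidney the value for Psmb10 was 2.55.

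Both subunits of the PA28 activator rose. Psme1 counted 70.3, 61.1 and 53.4 CPM in Ctr and 175, 170.5, 259 and 129 CPM in Lpr, a log2 fold change of 1.57 ± 0.25 with an adjusted p of 0.00501 (edgeR). Psme2, the other subunit of the same ring, counted 38.0, 36.7 and 32.9 CPM in Ctr and 106, 106, 202 and 82.6 CPM in Lpr, a log2 fold change of 1.80 ± 0.31 with an adjusted p of 0.00696 (edgeR). Lpr replicate 3 was the highest kidney for both, and without it the log2 fold changes were 1.36 and 1.46.

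Both subunits of the peptide transporter rose. Tap1 counted 16.9, 21.3 and 15.6 CPM in Ctr and 177, 178, 50.2 and 92.3 CPM in Lpr, with Lpr replicate 3 well below the other 3. The log2 fold change of Tap1 was 2.80 ± 0.45 (adjusted p 0.00538, edgeR) and 3.06 without that kidney. Tap2 counted 30.2, 33.6 and 24.7 CPM in Ctr and 277, 256, 186 and 159.5 CPM in Lpr, a log2 fold change of 2.90 ± 0.26 with an adjusted p of 0.000548 (edgeR). Tapbp, the chaperone that bridges transporter and class I, went from 104, 103 and 108 CPM in Ctr to 413, 375, 289.5 and 242 CPM in Lpr. Its log2 fold change was 1.65 ± 0.22 (adjusted p 0.00223, edgeR).

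Erap1 had the lowest log2 fold change of the 10, and that of Nlrc5 was exceeded by Psmb8 and Psmb9 alone. Erap1 counted 51.4, 50.9 and 52.5 CPM in Ctr and 146, 160.0, 70.0 and 121 CPM in Lpr, a log2 fold change of 1.27 ± 0.28 with an adjusted p of 0.0206 (edgeR). The call for Erap1 was lost when any 1 Ctr kidney was left out (adjusted p 0.0835 to 0.0949, edgeR) or when Lpr replicate 1 or 2 was (0.0534 and 0.0545). With the replicate number as a block its adjusted p was 0.0527, and without Lpr replicate 3 it was 0.000355. Nlrc5 counted 4.29, 5.30 and 2.43 CPM in Ctr and 52.3, 64.2, 12.2 and 39.7 CPM in Lpr. Its log2 fold change was 3.40 ± 0.57 (adjusted p 0.00651, edgeR) and 3.70 without Lpr replicate 3, its lowest Lpr kidney.

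**Figure D2:**
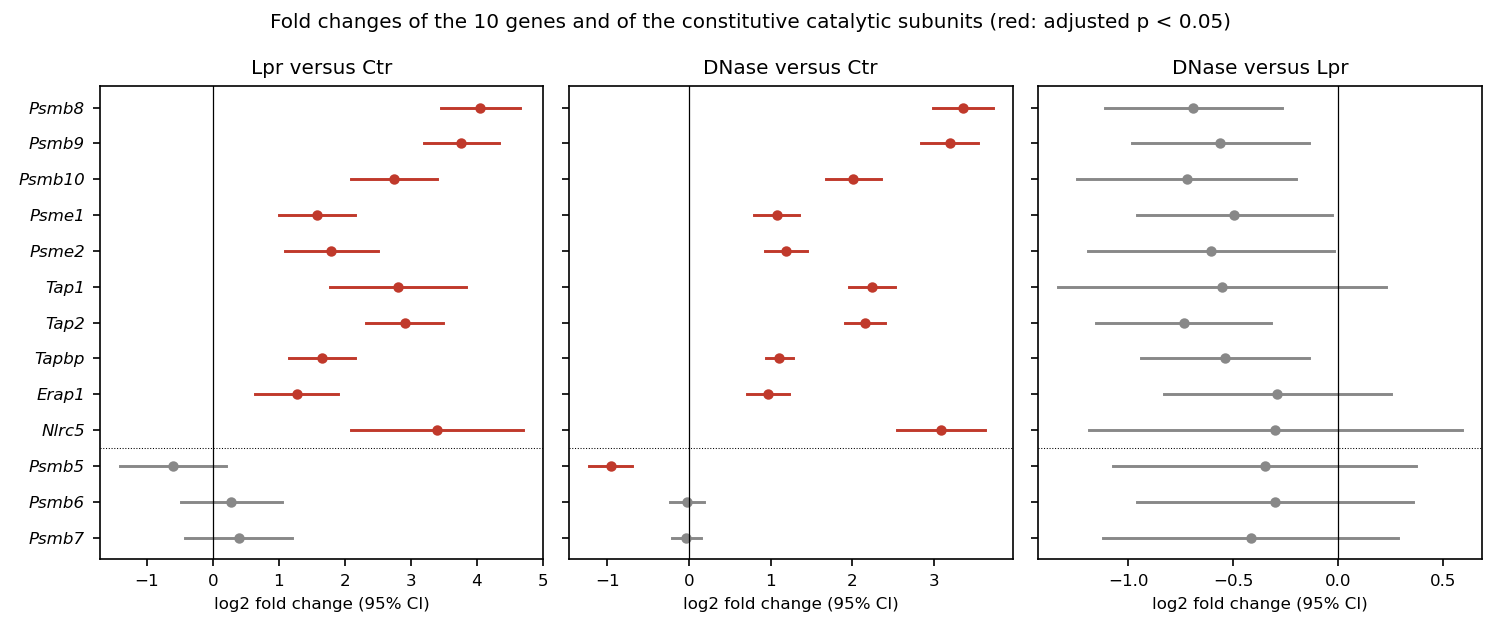
Log2 fold changes (points) with 95% confidence intervals (lines) from edgeR for the 10 genes and, below the dotted line, for Psmb5, Psmb6 and Psmb7. Red marks an adjusted p under 0.05, and the horizontal axes differ between the 3 comparisons. The 10 genes are red and above 0 against Ctr in both MRL/lpr groups, while all values of DNase versus Lpr are grey, from -0.74 to -0.29 among the 10.

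The position of Lpr replicate 3 differed between the 10 genes by length. It was the highest Lpr kidney for Psme1, Psme2 and Psmb10, of 977 to 1270 bases, and the lowest for Tap1, Erap1 and Nlrc5, of 2950 to 7915 bases. For the remaining 4 it lay between the other Lpr kidneys. Against the mean of the other Lpr kidneys it was higher by 1.05 log2 units for Psme2, and its difference for Nlrc5 was -2.06. For 9 of the 10 genes, all but Psme2, it lay below the trend over all genes of that length.

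**Figure D3:**
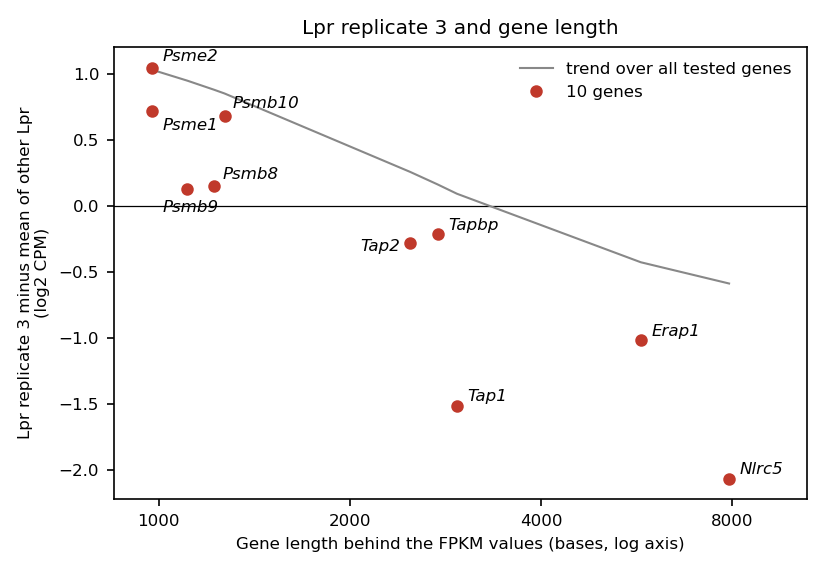
Difference of Lpr replicate 3 from the mean of the other 3 Lpr kidneys (vertical axis, log2 CPM) against gene length (horizontal log axis, bases). Red points are the 10 genes and the grey line is the trend over all genes tested, read at the lengths of these genes. The differences run from 1.05 for Psme2 at 977 bases to -2.06 for Nlrc5 at 7915 bases.

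None of the constitutive subunits that the inducible ones replace was called higher in Lpr. Psmb5, the counterpart of Psmb8, counted 124, 117 and 107 CPM in Ctr and 55.8, 55.0, 142 and 52.5 CPM in Lpr. All Lpr kidneys but replicate 3 held under 56.0 CPM of Psmb5, and the test over all 4 did not pass. The log2 fold change was -0.60 (95% CI -1.41 to 0.20), with an adjusted p of 0.389 (edgeR). Without replicate 3 Psmb5 fell by 1.09 on the log2 scale (adjusted p 0.000355), and with the length trend removed it fell by 0.90 (adjusted p 0.00186, edgeR). Psmb6 had a log2 fold change of 0.28 (95% CI -0.49 to 1.05) and Psmb7 one of 0.39 (95% CI -0.43 to 1.20), and neither passed the test. Without replicate 3 the values of Psmb6 and Psmb7 were -0.16 and -0.09, again with no call.

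The ratio of inducible to constitutive subunit was then formed within each kidney on the FPKM scale. For Psmb8 over Psmb5 it was 0.111, 0.129 and 0.0993 in Ctr, 4.12, 4.67, 1.63 and 2.89 in Lpr, and 2.19, 2.35, 2.21 and 2.27 in DNase. The inducible subunit thus made up 9.03% to 11.5% of the pair in Ctr, 62.0% to 82.4% in Lpr and 68.6% to 70.1% in DNase. For Psmb9 over Psmb6 the ratio was 0.0702 ± 0.00467 in Ctr, 0.902 ± 0.378 in Lpr and 0.653 ± 0.0547 in DNase (SD, n = 3, 4 and 4). For Psmb10 over Psmb7 it was 0.135 ± 0.0236, 0.762 ± 0.249 and 0.556 ± 0.0613 in the same order. In every pair each MRL/lpr kidney was above each Ctr kidney.

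On the log2 scale the ratios of Lpr exceeded those of Ctr by 4.78, 3.58 and 2.45 for the pairs of Psmb8, Psmb9 and Psmb10. The exact two-sided permutation test gave p = 0.0571 for each, the smallest that 3 against 4 kidneys allow, and 0.0857 after Benjamini-Hochberg adjustment over the 9 ratio tests. Between DNase and Lpr the ratios differed by -0.45, -0.36 and -0.40, less than the spread between Lpr kidneys (exact permutation p = 0.314, 0.314 and 0.229). Without Lpr replicate 3 these differences were -0.76, -0.65 and -0.58 (exact permutation p = 0.0571, 0.0571 and 0.114), where 0.0571 is the smallest that the design allows.

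**Figure D4:**
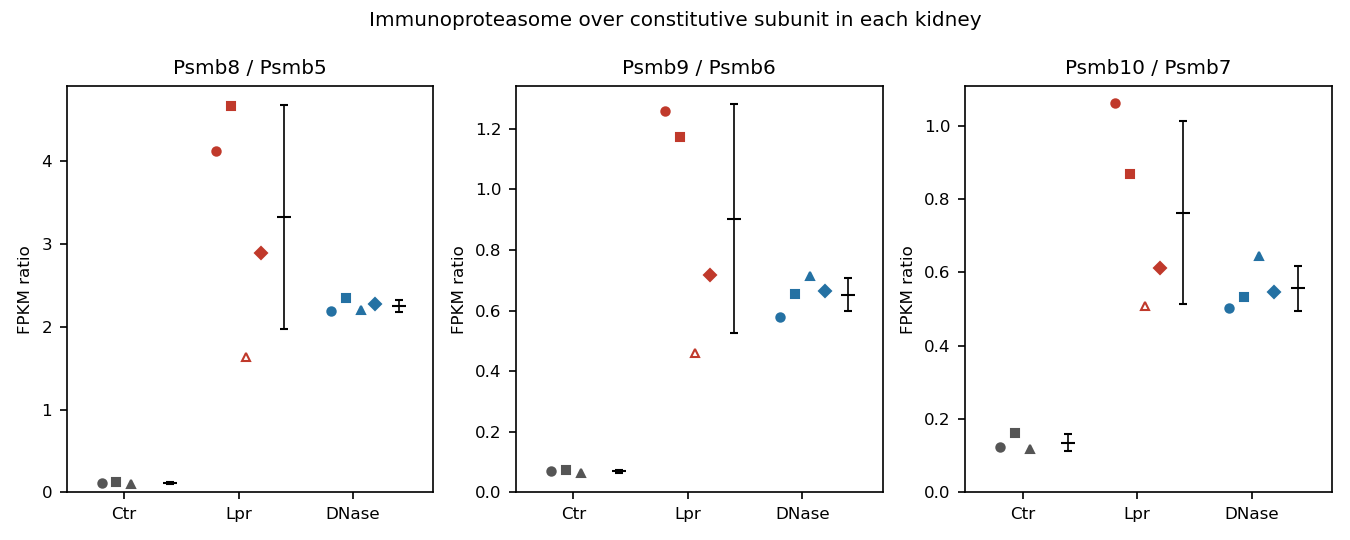
FPKM ratio of inducible to constitutive subunit within each kidney (vertical axes, linear from 0) for the 3 subunit pairs in Ctr, Lpr and DNase. Symbols are as in the plot of CPM by kidney, with the mean ± SD in black. The Psmb8 to Psmb5 ratio is under 0.130 in every Ctr kidney and 1.63 or more in every MRL/lpr kidney, and Lpr replicate 3 has the lowest Lpr ratio in each panel.

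The comparison of DNase with Lpr asked what changed with treatment. The edgeR test called 0 of the 10 genes and 0 of 15832 genes, or 0% of all genes tested, while DESeq2 called 19 genes, none of them among the 10. The adjusted p of the 10 ran from 0.820 to 0.879. Before adjustment, 7 of the 10 were lower in DNase at a p under 0.05, beside 3.43% of all genes. The log2 fold change was below 0 in all 10, beside 52.9% of all genes, and its median was -0.56, beside -0.02.

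Tap2 and Tapbp were the genes in which every DNase kidney was below every Lpr kidney, a pattern held by 1.87% of all genes. Tap2 counted 130.3, 136, 134 and 124 CPM in DNase, against a lowest Lpr value of 159.5. Its log2 fold change was -0.74 (95% CI -1.15 to -0.32) with an unadjusted p of 0.00288 and an adjusted p of 0.820 (edgeR). Tapbp counted 223, 230.3, 235 and 215 CPM in DNase, against a lowest Lpr value of 242. Its log2 fold change was -0.54 (95% CI -0.94 to -0.14), with an unadjusted p of 0.0133 (edgeR). The exact permutation test gave p = 0.0286 for both, unadjusted. Any gene whose 4 against 4 kidneys do not overlap has this value, so it restates the pattern and adds no support.

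In the catalytic subunits the DNase kidneys overlapped the lowest Lpr kidney, replicate 4. Psmb8 counted 157, 176, 217 and 204 CPM in DNase, a log2 fold change of -0.69 (95% CI -1.11 to -0.27) with an unadjusted p of 0.00452 (edgeR). Psmb9 counted 65.8, 72.1, 93.1 and 82.0 CPM, with a log2 fold change of -0.56 (95% CI -0.99 to -0.14). Psmb10 counted 65.2, 62.7, 88.5 and 75.7 CPM, with a log2 fold change of -0.72 (95% CI -1.24 to -0.20). The other 3 Lpr kidneys were above every DNase kidney for each of these subunits.

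The remaining genes showed smaller or wider differences. Psme1 counted 119, 116, 148 and 134 CPM in DNase, with a log2 fold change of -0.50 (95% CI -0.96 to -0.03). Psme2 counted 72.7, 71.9, 92.6 and 88.2 CPM, with a log2 fold change of -0.61 (95% CI -1.19 to -0.02). For both the DNase kidneys overlapped Lpr replicate 4. Tap1 counted 83.2, 88.5, 91.3 and 74.7 CPM in DNase, a log2 fold change of -0.55 (95% CI -1.33 to 0.23). For Erap1 it was 105, 114, 79.9 and 106 CPM, a log2 fold change of -0.29 (95% CI -0.83 to 0.25). For Nlrc5 it was 28.5, 37.8, 36.0 and 33.7 CPM, a log2 fold change of -0.30 (95% CI -1.19 to 0.59). The intervals of these 3 included 0, and their lowest Lpr kidney was replicate 3.

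Lpr replicate 3 set part of these values. Without it 8 of the 10 genes were lower at an unadjusted p under 0.05, beside 5.98% of all genes, and again all 10 were below 0, beside 51.8%. The smallest adjusted p among the 10 was 0.272, for Tap2, and none was called. Tap1 went to -0.82, Nlrc5 to -0.62 and Erap1 to -0.49, while Psme1 and Psme2 shrank to -0.29 and -0.27 and missed the unadjusted limit. The median of the constitutive catalytic subunits went from -0.35 to 0.13, that of the other 20S core subunits from -0.31 to 0.04 and that of the 19S regulator from -0.24 to 0.01.

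The comparison of DNase with Ctr showed how far the treated kidney stood from healthy kidney. All 10 genes were higher in DNase (adjusted p 2.83e-06 to 0.000303, edgeR), as were 13.1% of all 16100 genes tested. No DNase kidney overlapped a Ctr kidney in any of the 10, a pattern of 18.0% of all genes in that direction. The fold limit was passed by Psmb8, Psmb9, Psmb10, Tap1, Tap2 and Nlrc5, and by 4.56% of all genes, with Psmb10 at 2.01 just inside and at 1.91 when Ctr replicate 3 or DNase replicate 3 was left out. Both comparisons share the Ctr kidneys.

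The log2 fold changes of DNase against Ctr were 3.35 ± 0.16 for Psmb8, 3.19 ± 0.15 for Psmb9 and 2.01 ± 0.15 for Psmb10. They were 1.07 ± 0.12 for Psme1 and 1.18 ± 0.11 for Psme2. They were 2.24 ± 0.12 for Tap1, 2.16 ± 0.11 for Tap2 and 1.11 ± 0.0715 for Tapbp, and 0.97 ± 0.11 for Erap1 and 3.09 ± 0.24 for Nlrc5. Psmb8 remained 10.2-fold above Ctr, Tap2 4.47-fold and Erap1 1.96-fold. Psmb5 fell in DNase, to 51.1, 53.3, 70.0 and 63.7 CPM, by 0.96 on the log2 scale (adjusted p 0.000395, edgeR), a direction called in 8.61% of all genes. In a fit of all 3 groups together the adjusted p of Psmb5 was 0.0714. Psmb6 at -0.02 and Psmb7 at -0.03 did not pass the test.

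The other proteasome parts were counted against the same shares of all genes. Between Lpr and Ctr, 0 of 11 non-catalytic 20S core genes and 0 of 18 genes of the 19S regulator passed the test. Their median log2 fold changes were 0.46 and 0.28, and 7.27% of all genes were called higher. Without Lpr replicate 3 these medians were 0.15 and 0.02. In that setting 1 core gene and 0 genes of the 19S regulator were called higher, beside 11.0% of all genes. Among 8 other activators and assembly factors Psmg4, an assembly chaperone, rose by 1.23 ± 0.33 on the log2 scale (adjusted p 0.0484, edgeR). Against Ctr in DNase the calls were 4 higher of 11, 1 higher of 18, and 2 higher and 1 lower of 8, beside 13.1% of all genes higher and 8.61% lower. Between DNase and Lpr none of these lists had a call.

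Most class I genes rose as well. Of 10 class I heavy chains and B2m, 6 rose and 2 fell in Lpr, where 7.27% of all genes rose and 2.92% fell. B2m, the light chain, counted 380.4, 374 and 385 CPM in Ctr, 3191, 3402, 3258 and 2237 CPM in Lpr and 1805, 2063, 1816 and 2098 CPM in DNase. Its log2 fold change was 3.00 ± 0.22 for Lpr against Ctr (adjusted p 0.000293, edgeR) and -0.63 (95% CI -1.01 to -0.25) for DNase against Lpr (adjusted p 0.820). Every DNase kidney was below every Lpr kidney for 6 of 9 class I genes tested (B2m, H2-K1, H2-D1, H2-T22, H2-T23 and H2-M3), as for Tap2 and Tapbp, beside 1.87% of all genes. At an unadjusted p under 0.05, 7 of the 9 were lower, beside 3.43% of all genes. None was called after adjustment. The genes that fell were H2-Q7, with a mean of 4.18 CPM in Ctr and 0.109 CPM in Lpr, and H2-Q6, with 4.26 and 0.578 CPM, both in the region where the strains differ in haplotype.

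Chaperones of the endoplasmic reticulum, general ones among them, were also called. In Lpr 5 of 7 rose, beside 7.27% of all genes. Tapbpl, a tapasin relative that edits peptides, led at 2.17 ± 0.34 on the log2 scale, then Hspa5 at 1.16 ± 0.22 and Hsp90b1 at 1.13 ± 0.19. In DNase against Ctr 4 of 7 were higher, beside 13.1% of all genes. In DNase against Lpr none was called, and 4 of 7 were lower at an unadjusted p under 0.05, beside 3.43% of all genes. Without Lpr replicate 3 it was 7 of 7, beside 5.98% of all genes. Every DNase kidney was below every Lpr kidney in Calr, Canx, Pdia3, Hspa5 and Hsp90b1, a pattern of 1.87% of all genes. The median log2 fold change of the list was -0.48. Of 6 other peptidases of the class I pathway tested, from a list of 7, 0 were called in any comparison. Erap1 was thus the one peptidase followed here with a call.

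Of 9 genes listed with the transcription complex that Nlrc5 joins, Ciita alone rose in Lpr, by 3.65 ± 0.63 on the log2 scale (adjusted p 0.00732, edgeR). Ciita is the class II transactivator, a relative of Nlrc5 whose targets are class II genes. It counted 133, 93.4, 17.5 and 63.4 CPM in Lpr, and as for Nlrc5 replicate 3 was the lowest. The DNA-binding members of the complex, Rfx and Nfy subunits among them, were not called in Lpr. In DNase against Ctr 3 of the 9 were higher, beside 13.1% of all genes.

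Genes of the interferon gamma axis, the best known inducer of these 10 genes, were called in part. In Lpr 3 of 8 rose, namely Ifng, Socs1 and Irf1, beside 7.27% of all genes. When Lpr replicate 3 was left out it was 6 of 8, beside 11.0% of all genes. The further 3 were Jak1, Irf2 and Ifngr2, at log2 fold changes of 0.49, 0.56 and 0.65. Ifng, the cytokine, had 3, 1 and 1 counts in Ctr, 39, 20, 42 and 23 in Lpr and 14, 28, 43 and 47 in DNase, and was higher in Lpr with an adjusted p of 0.00391 (edgeR). Socs1, the feedback inhibitor, counted 1.15, 1.69 and 1.11 CPM in Ctr, 18.6, 11.1, 7.25 and 5.83 CPM in Lpr and 6.26, 7.09, 10.6 and 7.77 CPM in DNase. Irf1, a direct activator of the Psmb9 and Tap1 promoter, counted 26.0, 27.1 and 26.4 CPM in Ctr, 221, 251, 102 and 113 CPM in Lpr and 107, 109.5, 130.2 and 105 CPM in DNase. For both genes the Lpr kidneys overlapped the DNase kidneys, and replicates 3 and 4 were the lowest in Lpr. Log2 fold changes for Lpr against Ctr were 2.70 ± 0.36 for Irf1 (adjusted p 0.00223, edgeR) and 3.03 ± 0.46 for Socs1 (adjusted p 0.00414).

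Between DNase and Lpr the values differed by gene. Socs1 had a log2 fold change of -0.43 (95% CI -1.21 to 0.36) and Irf1 one of -0.60 (95% CI -1.24 to 0.04), while Ifng had one of -0.03. None passed the test (adjusted p 0.854, 0.854 and 0.990, edgeR). In DNase against Ctr 6 of the 8 genes were higher, beside 13.1% of all genes.

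Leukocyte markers moved with the 10 genes between healthy and MRL/lpr kidney. In Lpr 9 of 9 T cell, 3 of 4 NK cell, 3 of 5 B and plasma cell, 8 of 8 macrophage and dendritic cell, 3 of 3 neutrophil and 4 of 4 pan-leukocyte markers that could be tested rose, beside 7.27% of all genes. Their summed T cell level went from 5.78 to 9.26 CPM in Ctr to 86.8 to 186 CPM in Lpr, and the pan-leukocyte sum from 41.8 to 57.0 CPM to 258 to 444 CPM. The highest log2 fold changes were those of Cd5, Cd8a and Cd4 (4.32, 4.31 and 4.25) among T cell genes, of Eomes, Prf1 and Klrk1 (4.26, 4.06 and 3.33) among NK cell genes, and of Jchain, Mzb1 and Cd79a (5.12, 4.44 and 3.09) among B and plasma cell genes. They were those of C1qa, Xcr1 and Adgre1 (3.44, 3.12 and 3.11) among macrophage and dendritic cell genes, of Csf3r, S100a8 and S100a9 (3.97, 2.89 and 2.30) among neutrophil genes, and of Cd53, Ptprc and Laptm5 (3.01, 2.94 and 2.64) among pan-leukocyte genes. Among NK cell genes Klrb1c did not rise, with a log2 fold change of -0.13 (adjusted p 0.949, edgeR), and Ncr1 was too low to test. Both were named after their values were seen. The neutrophil marker Ly6g had 0 counts in every Ctr kidney and at most 3 in any other. None of 9 kidney epithelium and podocyte markers and none of 5 endothelium markers was called with all Lpr kidneys. Leaving out Lpr replicate 3, the proximal tubule gene Kap fell by 2.42 on the log2 scale (adjusted p 0.00761, edgeR), Slc12a3 of the distal tubule by 0.77 and Kdr of endothelium by 0.43, where 6.79% of all genes fell. These genes were named after their values were seen. The summed epithelium and podocyte level was 25630 to 26365 CPM in Ctr, 28477 CPM in Lpr replicate 3 and 11295 to 16841 CPM in the other Lpr kidneys. Kap weighed heavily in this sum, with a mean of 10472 CPM in Ctr and 833 to 18766 CPM in Lpr, highest in replicate 3. Slc34a1 and Umod reached at most 3992 and 4032 CPM in Lpr, replicate 3 included, against at least 4145 and 4725 CPM in Ctr. Of the 9 markers 7 had a log2 fold change below 0 in Lpr. In whole kidney, more cells of a type and more RNA per cell cannot be told apart, and the part of the leukocytes and of the lower epithelial level in the rise of the 10 genes was not tested.

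In DNase against Lpr no marker list had a call. The median log2 fold changes were -0.09 for T cell, -0.19 for pan-leukocyte, -0.21 for macrophage and dendritic cell, -0.35 for NK cell, -0.38 for neutrophil and 0.42 for B and plasma cell markers. Without Lpr replicate 3 they were -0.14, -0.20, -0.37, -0.57, -0.53 and 0.54 in the same order, beside -0.57 for the 10 loading and proteasome genes. Of 5 B and plasma cell markers 1, Ms4a1, was higher in DNase at an unadjusted p under 0.05, as were 2.17% of all genes. The macrophage gene Mrc1, which like Ms4a1 was named after its value was seen, was the one leukocyte marker lower at that limit, at -0.86 (95% CI -1.58 to -0.15). Ptprc, the pan-leukocyte marker CD45, had a log2 fold change of -0.01 (95% CI -0.60 to 0.58) and Cd3e of the T cell receptor complex one of 0.05 (95% CI -0.73 to 0.83), each the value nearest 0 in its list. The lists ran from -0.21 to -0.01 and from -0.59 to 0.33. The 2 Lpr kidneys with the highest Tap2 level differed in Ptprc and Cd3e. Lpr replicate 1 held 110.2 FPKM of Tap2, 9.36 of Ptprc and 2.92 of Cd3e, and Lpr replicate 2 held 106 of Tap2, 19.1 of Ptprc and 9.04 of Cd3e. Both were above Lpr replicates 3 and 4 in summed neutrophil markers, at 36.9 and 27.6 against 16.0 and 15.0 CPM. The same held for macrophage and dendritic cell markers (739 and 994 against 713 and 496 CPM) and pan-leukocyte markers (268 and 444 against 263 and 258 CPM). In T cell, NK cell, and B and plasma cell sums replicate 1 was not above both replicates 3 and 4.

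**Figure D5:**
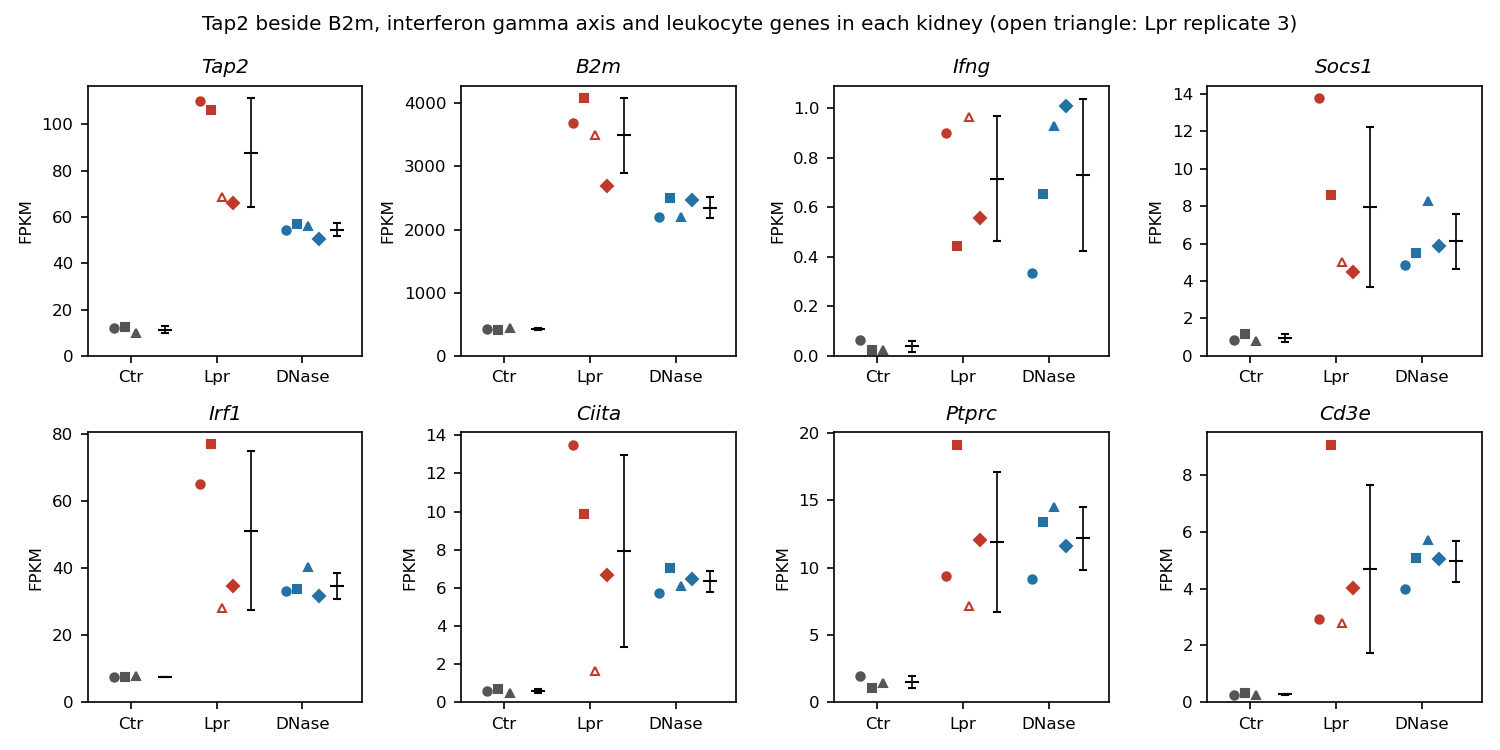
FPKM (vertical axes, linear from 0) of Tap2, B2m, Ifng, Socs1, Irf1, Ciita, Ptprc and Cd3e in each kidney, with symbols as in the plot of CPM by kidney and the mean ± SD in black. DNase points lie below all Lpr points for Tap2 and B2m, and the Lpr and DNase points overlap for the other 6 genes. For Ptprc they span 7.18 to 19.1 FPKM in Lpr and 9.16 to 14.5 FPKM in DNase.

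Across the 8 MRL/lpr kidneys the 10 genes varied together only in part. Pearson's r of log2 CPM over their 45 pairs ran from -0.58 to 0.99 with a median of 0.59. Without Lpr replicate 3 it ran from 0.48 to 0.99 over 7 kidneys with a median of 0.90. These points share library scaling, gene length effects and group, so the values are given as descriptions.

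For each gene the most alike of 11518 other genes with at least 5 CPM was found over the same 8 kidneys. It was H2-M3 for Psmb8 (r = 0.981), Parp9 for Tap1 (r = 0.984), Rtp4 for Tapbp (r = 0.992) and Naaa for Tap2 (r = 0.996). The others were Nfkbib for Psmb9 (r = 0.988), AI837181 for Psmb10 (r = 0.990), Pnp for Psme1 (r = 0.990), Tbcc for Psme2 (r = 0.990), Sf3b3 for Erap1 (r = 0.982) and Smap2 for Nlrc5 (r = 0.988). Each is the highest of 11518 values over 8 kidneys, so a high r comes in part from the choice. The median r over all these genes ran from -0.08 for Psme2 to 0.14 for Nlrc5. Without Lpr replicate 3 only Naaa kept its place for Tap2 (r = 0.996). The others became H2-T22 for Psmb8, Ehd1 for Psmb9, Cenpb for Psmb10, Cdk2ap1 for Psme1, Rrp7a for Psme2, Ifitm3 for Tap1, Dhx58 for Tapbp, Lgmn for Erap1 and P2rx4 for Nlrc5 (r = 0.987 to 0.999 over 7 kidneys).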

How the data were processed

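RNA of 11 kidneys was sequenced by the authors with paired reads of 100 bp. The deposited gene counts are whole numbers without normalization, for which the authors name HTSeq, and the submitters' processing notes name fastp and the build mm10. The deposited FPKM values were made by the authors from the same counts, library totals and gene lengths. The aligner and the strand setting are not given in the sources used here. All columns were used.

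Groups came from the labels and were compared in pairs with the quasi-likelihood test of edgeR 4.0.16 in R 4.3.3, after filterByExpr and TMM scaling. P-values were adjusted by the Benjamini-Hochberg method over all genes tested, and a gene was called at an adjusted p under 0.05. The study's limit of an absolute log2 fold change above 2 was counted besides. With 1 library per mouse, p-values measure the spread between mice. Ratios were tested by exact permutation tests, two-sided. Taken over all genes, counts spread more between mice of a group than sampling gives. Whether depth (33469858 to 38460873 counts per kidney) limited the precision of single genes among the 10 was not checked.

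The 10 genes and 17 further lists were chosen with earlier results of these data known. The text names all 10 genes, Psmb5, Psmb6 and Psmb7, up to 3 called genes with the largest change in Lpr per list, and B2m, Ifng, Irf1, Ptprc, Cd3e, Slc34a1, Umod and Nphs1. Results of 2 further genes are not reported here, and they were left out of their lists.

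Alternatives were DESeq2 1.42.0, other scalings, no filter, all groups in 1 fit, a replicate block, a robust fit, removal of the gene length trend, limma 3.58.1 on log2(FPKM + 1) and log2(FPKM + 0.1) at a mean FPKM of at least 0.5, and leaving out each kidney. The values without Lpr replicate 3 for lists and likeness, the sum of Psme2 and Psme2b and the counts at unadjusted p were added after the data were seen. The fits were tested on simulated data. Gene positions came from RefSeq and GENCODE on GRCm38, and shared sequence from blastn 2.17.0+. Nrdc, a listed peptidase, was not found by symbol.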

Additional observations from a re-analysis of the deposited data

Results flagged for a closer look

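In 3 of 32 groups of 4 kidneys tested, 1 kidney lay farther from its group than a limit that chance passes in about 1 of 20 groups. All 3 were Lpr replicate 3 and the constitutive subunits of the proteasome. Its level was 142 CPM for Psmb5, where the other Lpr kidneys held 52.5 to 55.8 CPM. For Psmb6 it was 268 CPM, where the others held 106 to 113 CPM, and for Psmb7 it was 271 CPM, where the others held 104 to 105 CPM. None of the 10 immunoproteasome and loading genes was flagged in this way in Lpr or DNase.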

How the results depend on the processing

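Of 171 values of the 10 genes between Lpr and Ctr under the alternatives, 165 kept their direction and their side of the threshold, and the other 6 were the lost calls of Erap1. Between DNase and Lpr 181 of 181 did so with no call in any setting, and between DNase and Ctr 171 of 171. Counts over all genes moved more. Between Lpr and Ctr they were 1639 by edgeR, 2515 by DESeq2, 2555 with all 3 groups in 1 fit, and 852 to 2824 when 1 kidney was left out, the highest without Lpr replicate 3 and the lowest without Ctr replicate 1. With the fold limit 929 genes passed, against 213 and 565 by limma with pseudocounts of 1 and 0.1. Between DNase and Lpr DESeq2 called 19 genes, 5 of them past the fold limit, and edgeR 0 (886 genes at an unadjusted p under 0.05). Between DNase and Ctr they were 3493 by edgeR and 1889 with all 3 groups in 1 fit, and past the fold limit 967, against 190 and 549 by limma. The cause of these shifts was not tested. Genes among the 10 that were lower at an unadjusted p under 0.05 between DNase and Lpr numbered 5 to 8, and the log2 fold change of Psmb5 ran from -0.49 to 0.13 there when 1 kidney was left out, the highest and only reversed value without Lpr replicate 3. Psmb10 fell under the fold limit between DNase and Ctr without Ctr replicate 1 or 3 or DNase replicate 3 or 4, with the block and with the length trend removed, and Nlrc5 did so by limma with a pseudocount of 1 (1.94 in Lpr and 1.87 in DNase against Ctr).

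Replicate numbers did not pair the samples, since same-numbered kidneys deviated together with r of -0.28 to 0.16. With the replicate number as a block, 1268 genes and 9 of the 10 genes studied here were called between Lpr and Ctr, all but Erap1, and 1869 genes and all 10 between DNase and Ctr.

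Depth allowed a test of all 10 genes, and 3 to 4 kidneys a group set the limits. Intervals of DNase against Lpr reached from -1.33 to 0.59 on the log2 scale, and after adjustment a fall and no difference cannot be told apart for any of the 10.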
